A study of Mus musculus with 6 samples.

Results

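The genes described here handle cholesterol once a cell holds more of it than it needs: the liver X receptors (LXRs) and their targets, the efflux transporters, and the proteins that release cholesterol from lysosomes or store it as ester. They were chosen by symbol from 10 names (Abca1, Abcg1, Nr1h2, Nr1h3, Mylip, Apoe, Npc1, Npc2, Soat1 and Lipa), and all 10 were found among the 55414 genes of the table. RNA sequencing was done on TM4 cells, a mouse testis line that stands in for Sertoli cells, which nurse the germ cells of the testis. There were 3 libraries of cells labelled VC and 3 of control cells, all of the same line, with no dose or exposure time given. The sample titles name the group VC and the series title points to vitamin C, whereas the agent field and the design text give valine, so the group is called VC here. Nothing in the labels says that replicates came from separate cultures, so p-values measure the spread between these libraries, which may be technical.

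Cholesterol reaches a cell by synthesis in the endoplasmic reticulum or inside lipoproteins, which are taken up and broken down in lysosomes. When sterol is scarce, SREBP2 switches on the synthesis enzymes and lipoprotein uptake. When sterol is plentiful, oxidised sterols bind the LXRs, which then raise the efflux transporters ABCA1 and ABCG1 and the ubiquitin ligase MYLIP, which limits lipoprotein uptake. Export and synthesis are thus classically driven in opposite directions. In the testis, Sertoli cells take up lipid from dying germ cells and residual bodies, and mice without LXR beta accumulate lipid in these cells.

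The libraries held 20408416 to 22316860 reads, as recovered from the values. Control replicate 3 stood apart from the rest: a chi-square of recovered reads, divided by its degrees of freedom, was 8.76 to 15.6 in the pairs of libraries that hold it and 2.65 to 6.69 in the remaining pairs. Of 20 Sertoli cell markers 10 were above the expression filter; among them Gata4 stood at 21.8 ± 0.442 in VC and 19.2 ± 0.631 in control, and Inhbb, the inhibin beta B chain, at 176.7 ± 3.28 in VC and 155.8 ± 4.03 in control (mean deposited value ± SD, n = 3 each; limma adjusted p = 0.139 and 0.0747). Wt1, Fshr, Dmrt1, Gata1, Nr0b1 and Shbg were listed at 0 in all 6 libraries, and the summed level of the list was 1584 to 1633 in VC and 1620 to 1694 in control. Most of that sum came from Vim, the intermediate filament vimentin, which many cell types make and which was picked after its values were seen, at 1204 ± 34.0 in VC and 1273 ± 49.6 in control. Of the 10 tested markers 8 had a fold change above 0, as did 53.7% of all tested genes, and 0 were called by limma. An unadjusted p under 0.05 was found for 3, beside 17.2% of all tested genes, and the median log2 fold change was 0.11. Of 12 macrophage markers, a cell type with high LXR activity, 3 passed the filter (Cd14, Cd68 and Mertk), Adgre1, C1qa and C1qb were listed at 0, and the summed level was 68.1 to 79.5 in VC and 61.7 to 72.1 in control. Markers of peritubular myoid cells moved with the group: 3 of 5 tested fell by limma, beside 0.258% of all tested genes. The summed level of that list was 664.8 to 681.2 in VC and 1030 to 1129 in control. Acta2, the smooth muscle actin, fell to 381.7 ± 4.39 in VC, against 612.9 ± 29.3 in control (limma adjusted p = 0.0111). With any library other than control replicate 3 left out, at most 1 gene of the whole table was called lower. Leydig cell markers summed to 2.74 to 3.53 in VC and 2.34 to 3.38 in control, and germ cell markers to 3.34 to 4.13 in VC and 2.06 to 3.37 in control, with 0 of 3 tested genes called. In bulk RNA, fewer cells of a type and less RNA per cell cannot be told apart, and the part of these markers in the values below was not tested.

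The export genes fell into a transcribed set and a nearly silent one. Nr1h2, Npc1, Npc2, Lipa, Soat1 and Apoe had a value of at least 1 in all 6 libraries. Nr1h3, Mylip, Abca1 and Abcg1 stayed under the filter, under which 3 libraries or more must reach a value of 1. The deposited value is divided by gene length and behaves as a TPM value with 1 further factor per library, so levels of different genes can be set side by side. Of the 6 measured genes, 0 passed limma's threshold in VC against control (adjusted p under 0.05 over all 13972 tested genes), where 0.687% of all tested genes did, 0.429% higher and 0.258% lower. At an unadjusted p under 0.05 there were 3 of 6, Npc2, Npc1 and Nr1h2, beside 17.2% of all tested genes. Their log2 fold changes had a median of 0.09, against 0.01 for all tested genes, and 5 of 6 were above 0, as were 53.7% of all tested genes. In 4 of 6 (Npc2, Npc1, Nr1h2 and Soat1) the lowest VC library lay above the highest control library, which held for 13.9% of all tested genes. Groups kept apart in either direction were found for 25.6% of all tested genes. By limma-voom on the recovered reads, 0 export genes were called as well.

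**Figure D1:**
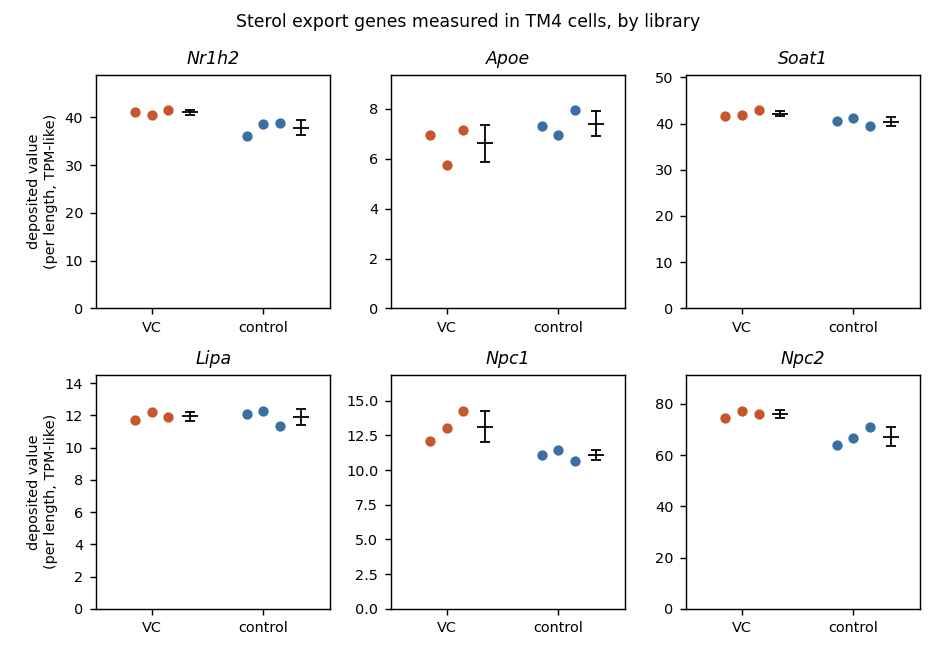
Deposited value of the 6 measured export genes in each library (points; VC left, control right), with the mean and SD of each group (n = 3) beside them; every vertical axis starts at 0. The VC points of Nr1h2, Soat1, Npc1 and Npc2 lie above all control points by small steps, while Lipa and Apoe overlap.

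Of the nuclear receptors, Nr1h2, which encodes LXR beta, was the LXR above the filter. Nr1h2 (ENSMUSG00000060601) had values of 41.1, 40.5 and 41.5 in VC, against 36.2, 38.7 and 38.8 in control. All 3 VC libraries were above all 3 control libraries, and the gap between the groups was smaller than the range of the control libraries. The log2 fold change was 0.11 (SE 0.042, 95% interval 0.01 to 0.21), with a limma adjusted p of 0.243. Nr1h3, which encodes LXR alpha (ENSMUSG00000002108), was read 2, 4 and 5 times in VC and 3, 7 and 0 times in control. The groups overlapped, and at this depth a difference was not detectable.

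Of 12 partners and coregulators of the LXRs 11 were tested and 0 were called by limma, with 0 also at an unadjusted p under 0.05 and a median log2 fold change of 0.04. Rxra, the retinoid X receptor that pairs with LXR on DNA, stood at 14.2 ± 0.468 in VC and 13.7 ± 0.316 in control, and Rxrb at 23.8 ± 0.152 in VC and 23.2 ± 1.31 in control (limma adjusted p = 0.717 and 0.755, n = 3 each); both were picked after their values were seen. The smallest unadjusted p in that list belonged to Ncor1, a corepressor that holds LXR targets down without ligand, at 49.9 ± 0.993 in VC and 43.7 ± 5.26 in control (limma adjusted p = 0.302). Next came Ncoa2, a coactivator, with a log2 fold change of 0.17 (SE 0.086, adjusted p = 0.358), and the histone deacetylase Hdac3, with -0.07 (SE 0.045, adjusted p = 0.482). Enzymes that make or clear oxysterols, the ligands of the LXRs, were nearly all under the filter: 1 of 7 was tested. Ch25h, which makes 25-hydroxycholesterol, and Cyp7b1, which clears it, were listed at 0 in all 6 libraries; these names too were picked after their values were seen. Cyp39a1, the tested gene, encodes an oxysterol hydroxylase and had 2.89 ± 0.593 in VC and 2.20 ± 0.577 in control (limma adjusted p = 0.458).

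The classical LXR targets among the export genes were almost without reads. Abca1, the transporter that loads cholesterol onto lipid-poor apolipoprotein A-I (ENSMUSG00000015243), gave 1, 6 and 1 reads in VC and 1, 3 and 1 reads in control, for values of 0.012 to 0.075. A count of 3 reads, the limit that a count of 0 allows, corresponds to a value of 0.0349 to 0.0376 for this long gene. The transporter Abcg1 (ENSMUSG00000024030), which passes cholesterol to HDL, gave 1, 0 and 1 reads in VC and 0 in every control library. Mylip (ENSMUSG00000038175) had 0 reads in all 6 libraries, which allows a value of up to 0.112 to 0.1204. No fold change is given for any of these, since nearly all libraries were at or under 3 reads, and such limits cover counting error only. With no filter, limma's adjusted p was 0.884 for Abca1, 0.869 for Abcg1 and 0.946 for Nr1h3.

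**Figure D2:**
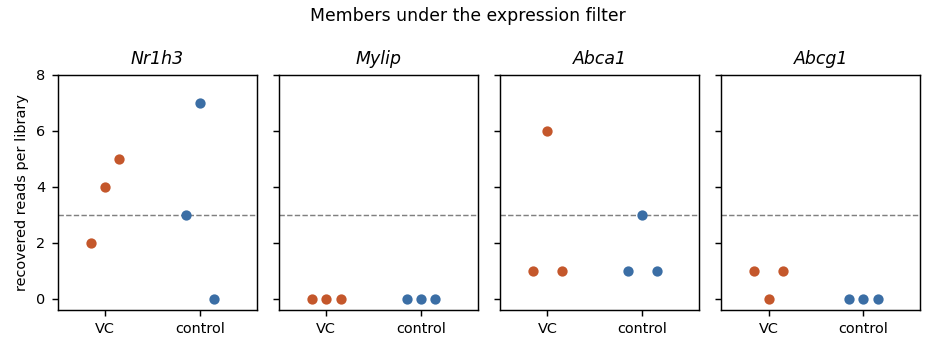
Reads recovered per library for the 4 export genes under the expression filter (points; VC left, control right); the dashed line marks 3 reads. No library exceeded 7 reads, and Mylip was at 0 in all 6.

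Abca1 is shown with its promoter because it holds the LXR element by which the gene is known. The 250 bases before its start are given from RefSeq on GRCm38.p6 (chr4:53159896-53160145, minus strand), with the element in capitals:
Abca1: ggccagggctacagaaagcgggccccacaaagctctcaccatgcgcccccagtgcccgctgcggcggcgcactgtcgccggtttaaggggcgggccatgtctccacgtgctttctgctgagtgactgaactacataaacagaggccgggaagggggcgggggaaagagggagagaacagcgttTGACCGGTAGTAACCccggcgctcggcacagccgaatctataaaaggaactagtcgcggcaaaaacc
The element searched was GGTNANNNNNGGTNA, a direct repeat spaced by 4 bases, on both strands, and its match here begins 67 bases before the start. Of 32851 promoters of the same length in the RefSeq table, 0.621% held a match. Of the 8 export genes with a promoter in the table, Abca1 alone did. For Abcg1 and Npc1 no promoter was found there, so these genes were not searched. The match describes the letters of this window and says nothing of whether a receptor was bound in these cells.

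Apoe encodes apolipoprotein E, a lipid carrier that can accept exported cholesterol, and is an LXR target in macrophages. Apoe (ENSMUSG00000002985) had values of 6.95, 5.77 and 7.15 in VC, against 7.31, 6.94 and 7.94 in control. It was the export gene with the lowest fold change, -0.14 (SE 0.096, 95% interval -0.37 to 0.08, limma adjusted p = 0.486), and the groups overlapped. VC replicate 2 had the lowest value, and without that library the log2 fold change was -0.06.

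Other LXR targets include lipogenic genes, which SREBP1 also drives. Of 16 further LXR targets 9 were tested and 0 were called by limma. An unadjusted p under 0.05 was found for 4 of the 9, beside 17.2% of all tested genes. Their median log2 fold change was 0.10, against 0.01 for all tested genes. Scd1, a stearoyl-CoA desaturase, stood at 223.5 ± 5.69 in VC and 182.7 ± 9.35 in control, and its log2 fold change was 0.29 by limma (SE 0.045, adjusted p = 0.0538). Its relative Scd2 had 0.22 (SE 0.036, adjusted p = 0.0555) and the fatty acid synthase Fasn 0.27 (SE 0.064, adjusted p = 0.114). In these 3 genes and in Srebf1 every VC library lay above every control library, which held for 13.9% of all tested genes. Lpl, the lipoprotein lipase, was the target whose VC libraries all lay below the control libraries, beside 11.6% of all tested genes. It stood at 51.1 ± 1.44 in VC and 55.3 ± 2.08 in control (limma adjusted p = 0.256). Scd1, Scd2, Fasn and Lpl were the 4 at an unadjusted p under 0.05. Lpl and Srebf1 were picked after their values were seen. Mlxipl, Cd5l, Apoc1 and Apoc2 were listed at 0 in all libraries.

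In the lysosome, acid lipase (Lipa) frees cholesterol from lipoprotein esters, and NPC2 hands it to the membrane protein NPC1, which passes it out. Npc2 (ENSMUSG00000021242) was the most abundant of the export genes, at 74.6, 77.5 and 76.2 in VC, against 63.9, 66.8 and 71.1 in control. The VC libraries were all higher, by 13.2% on the means, and the control libraries were the more spread of the groups. The log2 fold change was 0.18 (SE 0.046, 95% interval 0.07 to 0.29, limma adjusted p = 0.133). With libraries scaled to equal totals it was 0.25 and passed the threshold (adjusted p = 0.0415), in a fit that called 1.3% of all genes higher and shifted the median of all genes to 0.078. Over the other 15 alternatives its adjusted p did not pass, and over all 16 it ran from 0.0415 to 0.343.

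Npc1 (ENSMUSG00000024413) had 12.1, 13.0 and 14.3 in VC, against 11.1, 11.4 and 10.7 in control. All VC libraries were above all control libraries, and the VC libraries were the more spread. Its log2 fold change of 0.22 (SE 0.072, 95% interval 0.05 to 0.39) was the highest of the 6, and the limma adjusted p was 0.192. Of its exon bases, 5.31% lie in exons of other genes, among them Rmc1 on the opposite strand, whose own log2 fold change was 0.15 (SE 0.054, adjusted p = 0.244), and the labels do not say whether the libraries kept strand. Without strand, reads of Npc1 and Rmc1 over those bases cannot be told apart. Lipa (ENSMUSG00000024781) had 11.7, 12.2 and 11.9 in VC, against 12.1, 12.3 and 11.4 in control. Its groups overlapped, with a log2 fold change of 0.00 (SE 0.055, 95% interval -0.13 to 0.13, limma adjusted p = 0.988). Whether Npc1 and Npc2 differed from Lipa in their response was not tested.

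The promoter of Npc2 is shown beside that of Abca1 as that of the most abundant export gene. It is given for the 250 bases before its start (RefSeq, GRCm38.p6, chr12:84773113-84773362, minus strand), with capitals at the CCAAT box, the site of the factor NF-Y, on either strand:
Npc2: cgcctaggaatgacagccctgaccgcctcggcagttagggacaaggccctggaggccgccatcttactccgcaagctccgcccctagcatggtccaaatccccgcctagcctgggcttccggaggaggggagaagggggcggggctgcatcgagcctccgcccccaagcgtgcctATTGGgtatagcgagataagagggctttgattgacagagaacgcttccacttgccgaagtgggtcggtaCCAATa
CCAAT, or ATTGG on the other strand, was found in 4 of the 8 export promoters (Npc2, Soat1, Lipa and Mylip) and in 33.8% of all promoters. By gene rather than by promoter the share was 37.5%. Neither the sterol regulatory element TCACNCCAC nor the palindrome TCACGTGA of many lysosomal genes was found in the 8, which leave out Abcg1 and Npc1. Over all promoters they were held in 1.05% and 0.785% of cases.

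Other proteins carry sterol between membranes or help to store it. Of 24 such genes 20 were tested, 0 were called, 8 had an unadjusted p under 0.05 by limma, and the median log2 fold change was 0.09. Over all tested genes 17.2% had such a p. In 7 of 20 every VC library was above every control library, and in 1 the reverse held, beside 13.9% and 11.6% of all tested genes. Gramd1b, which carries cholesterol from the plasma membrane to the endoplasmic reticulum, stood at 10.3 ± 0.391 in VC and 7.56 ± 0.273 in control, and its log2 fold change was 0.39 by limma (SE 0.062, adjusted p = 0.0538). Stard4, a soluble sterol carrier, had 79.6 ± 1.25 in VC and 67.6 ± 4.12 in control (log2 fold change 0.23, SE 0.050, adjusted p = 0.0939). Nceh1, a hydrolase of cholesteryl esters, had 23.3 ± 0.640 in VC and 19.3 ± 1.88 in control (0.26, SE 0.073, adjusted p = 0.152). Among further efflux routes, Abca7, a transporter related to Abca1, was at 6.04 ± 0.278 in VC and 6.03 ± 0.231 in control, and Scarb1, the HDL receptor that moves cholesterol both ways, was at 27.5 ± 1.32 in VC and 25.8 ± 1.25 in control (adjusted p = 0.992 and 0.457); both were picked after their values were seen.

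Soat1 encodes the acyltransferase that turns free cholesterol into storage ester. Soat1 (ENSMUSG00000026600) had 41.7, 41.9 and 42.9 in VC, against 40.6, 41.2 and 39.4 in control. All VC libraries lay above the control libraries, by a margin smaller than the range within either group. The log2 fold change was 0.06 (SE 0.037, 95% interval -0.03 to 0.15, limma adjusted p = 0.453). Plin2, a coat protein of the lipid droplets that hold such ester, had a log2 fold change of 0.14 (SE 0.054, adjusted p = 0.270) and was picked after its values were seen.

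By level, the order was Npc2, Soat1, Nr1h2, Npc1, Lipa and Apoe, with means over the 6 libraries of 71.7, 41.3, 39.5, 12.1, 11.9 and 7.01. Soat1 was above Nr1h2 in 6 of 6 libraries, although their ranges overlapped. Npc1 was above Lipa in 3 of 6, and these were the VC libraries (12.1, 13.0 and 14.3, against 11.7, 12.2 and 11.9). In every control library it was below Lipa (11.1, 11.4 and 10.7, against 12.1, 12.3 and 11.4). The order of these neighbours thus went with the group, which was not tested. The other neighbours had separate ranges. Npc2 was at the level percentile 84.7 of all tested genes and Apoe at 32.9. The values are per total exon length, which counts every annotated exon. With the length of the principal transcript in its place, chosen after the data were seen, the order became Npc2 (118.1), Nr1h2 (66.2), Soat1 (48.3), Lipa (27.2), Npc1 (26.2) and Apoe (10.6). Nr1h2 and Soat1 thus changed places, as did Npc1 and Lipa by the mean over the 6 libraries. By group mean, Npc1 stayed above Lipa in VC (28.4 and 27.3) and below it in control (24.0 and 27.2).

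The next question was whether the export genes moved against or with sterol synthesis. Of 20 enzymes from acetoacetyl-CoA to cholesterol, all tested, 6 rose and 0 fell by limma over all genes (Acat2, Mvd, Idi1, Lss, Cyp51 and Msmo1), beside the 0.429% of all tested genes that rose. The fold changes of all 20 were above 0, as were 53.7% of all tested genes, and their median was 0.27 (log2). In 18 every VC library lay above every control library, which held for 13.9% of all tested genes. The 5 with the smallest adjusted p include Cyp51, the lanosterol demethylase, which rose to 166.9 ± 1.31 in VC, against 128.2 ± 0.762 in control. Its log2 fold change was 0.38 (SE 0.028, limma adjusted p = 0.0111). Lss, the cyclase that makes lanosterol, rose by 0.49 on the log2 scale (SE 0.049, adjusted p = 0.0189), and Acat2, a thiolase that starts the pathway, by 0.38 (SE 0.038, adjusted p = 0.0189). Mvd and Idi1, which make the isoprenoid units, rose by 0.40 and 0.34 (SE 0.035 and 0.031, adjusted p = 0.0167 for both). The list was chosen with a rise of sterol synthesis in these data already known, so its count is not independent evidence. The count was 8 without control replicate 3 and 0 without any other single library or with a replicate block, although the median then stayed between 0.260 and 0.285. With the spread estimated without a trend it was 0, and by limma-voom on the recovered reads 14.

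Beside these, 0 of 6 export genes passed the threshold in either direction. Their fold changes had the sign of synthesis in 5 of 6, although that of Lipa was near 0 and changed sign in 4 alternatives, and the opposite sign in Apoe, whose groups overlapped. Of the 20 synthesis genes, 12 had a log2 fold change above that of Npc1, the highest export gene. For 11 of 20 the 95% interval lay wholly above that of Lipa, for 15 above that of Apoe and for 5 above that of Npc2, while all 20 overlapped the wide interval of Npc1. By library, the median deviation from the control mean was 0.08, 0.07 and 0.11 log2 units in VC for the export genes, and 0.30, 0.27 and 0.28 in VC for the synthesis genes. The same medians in control libraries ran from -0.01 to 0.03 for export and from -0.01 to 0.02 for synthesis. No test was made of the difference between these lists. Abca1, Abcg1, Mylip and Nr1h3 stayed under the filter, so this comparison does not cover the efflux transporters among the export genes.

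**Figure D3:**
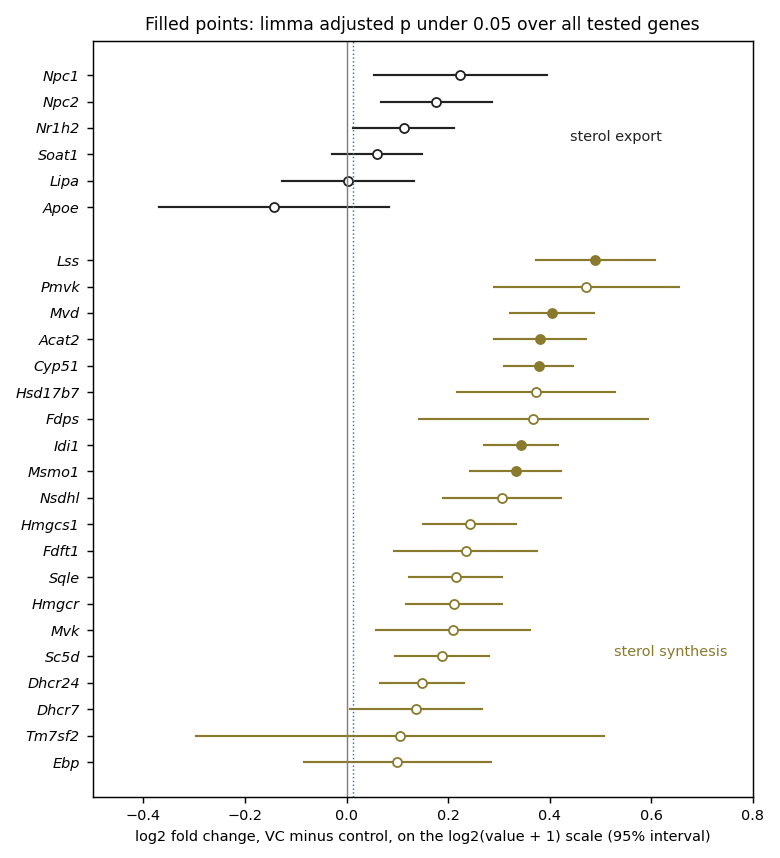
Log2 fold change of VC over control with its 95% interval for the 6 measured export genes (top) and the 20 sterol synthesis genes (bottom); filled points passed limma's threshold over all tested genes and the dotted line is the median of all tested genes, 0.01. The export genes run from -0.14 (Apoe) to 0.22 (Npc1), and the synthesis genes from 0.10 (Ebp) to 0.49 (Lss).

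Genes of sterol sensing and lipoprotein uptake split within their list. Of 8, 7 were tested and 1 rose, beside 0.429% of all tested genes. Insig1, the sterol-sensitive anchor of the SREBPs and itself an SREBP target, rose to 99.4 ± 1.86 in VC, against 81.1 ± 0.934 in control (log2 fold change 0.29, SE 0.032, limma adjusted p = 0.0257). With any library other than control replicate 3 left out, 0 genes of the whole table passed as higher, Insig1 included. Srebf2, which encodes SREBP2, had 157.0 ± 1.205 in VC and 141.8 ± 3.49 in control (log2 fold change 0.15, SE 0.032, limma adjusted p = 0.0982). In Insig1 and Srebf2 every VC library lay above every control library, which held for 13.9% of all tested genes. In Scap, Insig2, Mbtps1 and Mbtps2 the groups overlapped.

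A stretch of the Hmgcs1 promoter, of the synthase that feeds HMG-CoA reductase, is given here (RefSeq, GRCm38.p6, chr13:119690199-119690237, plus strand). It was the only synthesis promoter searched that held the sterol regulatory element, which is in capitals:
Hmgcs1: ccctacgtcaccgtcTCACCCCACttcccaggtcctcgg
The element begins 137 bases before the start. It was found in 1 of the 15 synthesis genes searched and in 0 of the 8 export genes. Of all genes 1.22% held it, so these counts are too small to set the lists apart. Hmgcs1 itself had 71.3 ± 0.785 in VC and 60.2 ± 2.23 in control (log2 fold change 0.24, SE 0.039, limma adjusted p = 0.0538). A CCAAT box was found in 14 of the 15 synthesis genes with a RefSeq promoter, against 4 of 8 export genes and the 37.5% of all genes given above.

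**Figure D4:**
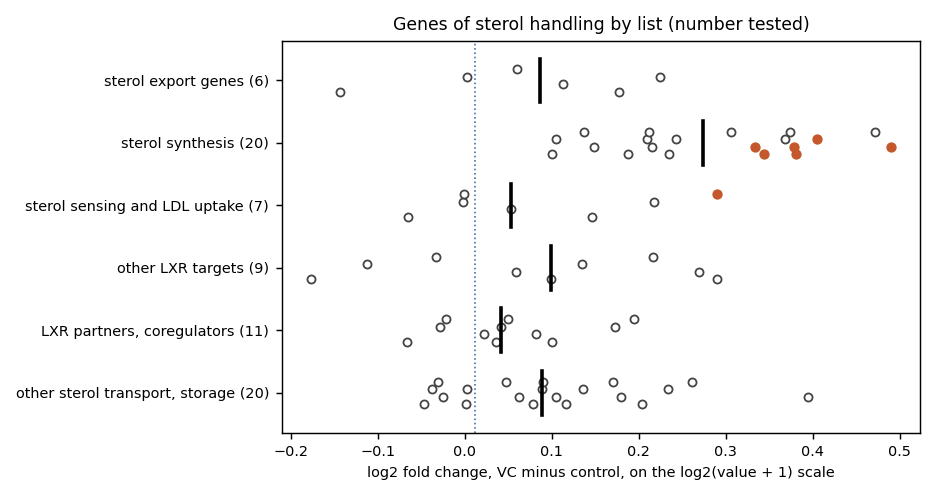
Log2 fold change of each tested gene in the lists of sterol handling (points; filled where limma's adjusted p was under 0.05), with the median of each list as a black bar and the median of all tested genes, 0.01, as a dotted line. The synthesis list has its median at 0.27, and the other 5 lists shown have theirs between 0.04 and 0.10.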

How the data were processed

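RNA was extracted with Trizol and made into TruSeq libraries, per the labels' protocols. HISAT2 and the build GRCm39 are named in the submitters' processing notes; for the read counter and the annotation the sources used here give no name. The deposited table holds a per-length signal for each gene and library, and its name points to TMM scaling by the authors; column totals ran from 966031 to 1058206. Columns were matched to samples by group letter and number. Symbols (52081 of 55414 identifiers) and exon lengths (52133) came from GENCODE M21 on GRCm38, so no gene coordinates are given. Value times length gave whole reads, to within 0.1 read, for 98.7% to 98.9% of the values checked (those of at most 1000 reads). These reads gave depth, the chi-square of library pairs, the read counts and limits of genes, the simulated data and 1 alternative. The main fit used the deposited values.

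The filter kept the genes at 1 or above in 3 of the 6 libraries or more. On log2(value + 1), limma 3.58.1 under R 4.3.3 fitted VC against control (empirical Bayes with a trend, two-sided), with Benjamini-Hochberg adjustment over all 13972 genes and a threshold of 0.05. Fold changes are VC minus control on that scale, so that the change of a low gene comes out too small. The procedure was tested on simulated data, with folds larger than those of the export genes and the same spread in every library. Changes as small as theirs, or a library that stands apart, were not covered. The members and lists were chosen with earlier results of these data known. Named genes are all members and, from each other list, those past the threshold or up to 3 with the smallest p (markers 2, synthesis 5); departures are stated, and 1 gene that the rule takes is left out of the text. Promoters came from RefSeq (GRCm38.p6). Python 3.11.15, pandas 2.3.3, numpy 2.4.6 and matplotlib 3.10.9 were used.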

Additional observations from a re-analysis of the deposited data

How the results depend on the processing

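Each result was recomputed under 16 alternatives of pseudocount, filter, scaling, variance model, library weights, pairing, reads and libraries left out. For the 6 measured export genes, 91 of 96 gene and alternative pairs kept the direction and an adjusted p above the threshold. Npc2 passed with equal totals (log2 fold change 0.25), so that 1 export gene was called there; the median of all genes shifted to 0.078 in that fit, the export median to 0.157 and the synthesis median to 0.345. Lipa, near 0, took the other sign with library weights (-0.019), after quantile normalization (-0.032), without VC replicate 2 (-0.014) and without control replicate 3 (-0.028); with 1 library left out it ran from -0.028 to 0.024. Over all alternatives the export median ran from 0.072 to 0.157, and when libraries were left out Npc1 ran from 0.17 to 0.28 and Npc2 from 0.14 to 0.22. The synthesis median was 0.228 with a pseudocount of 5, 0.306 with a filter of 5 (Tm7sf2 is then not tested), and 0.260 to 0.285 with a library left out.

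The count of all called genes (96) was 254 with library weights, 6 without a trend, 183 with the filter of 5, 217 with equal totals, 548 by limma-voom on recovered reads and 30 with no filter. The 6 synthesis genes called became 13, 0, 11, 12 and 14 under the first 5 of these. With 1 library left out, the count of all genes ran from 0 to 82 and that of synthesis genes from 0 to 8. Without control replicate 3 they were 82 and 8; without VC replicate 3 or control replicate 1 they were 1 and 0. Without VC replicate 1, VC replicate 2 or control replicate 2 both were 0 by limma, with 1896, 1777 and 2248 genes at an unadjusted p under 0.05. The 4 export genes whose groups did not overlap were 4 also without control replicate 3, where 19.9% of all genes lay higher without overlap.

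Replicate numbers are shared by the groups, but same-numbered libraries did not deviate together (correlations -0.019, -0.011 and 0.005). With 3 libraries per group these correlations cannot tell whether the numbers pair the samples, and the main fit took the libraries as unpaired. With a replicate block, 0 genes were called over all genes, 0 of the synthesis list and 0 export genes by limma, with 2039 genes at an unadjusted p under 0.05 against 2410 without it. The 96 calls were 60 higher and 36 lower, and with equal totals 182 higher and 35 lower. Depth limits Abca1, Abcg1, Nr1h3 and Mylip, for which a difference was not detectable.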

Other observations

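Soat2, which encodes the acyltransferase that is the close relative of Soat1 and is best known from liver and gut, was picked after its values were seen. It stayed under the filter, with 14, 4 and 13 reads in VC and 2, 2 and 3 reads in control. Its values were 0.579 ± 0.298 in VC and 0.131 ± 0.0275 in control (SD, n = 3 each), and all VC libraries lay above all control libraries. With no filter, limma gave a log2 fold change of 0.46 (SE 0.15, adjusted p = 0.359), so the difference did not pass. Soat1 had 3078 reads or more in every library.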
